A study of Homo sapiens with 9 samples.

Results

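The open chromatin around 6 genes of SF3b, the part of the splicing machinery that grips the branch site of an intron, was described. The loci were SF3B1, SF3B2, SF3B3, SF3B4, SF3B5 and PHF5A. A region belonged to the set if it overlapped a fixed hg19 window around its gene, 30 to 90 kb long and 330 kb in all, whatever its signal or its change with treatment. This chose 27 of the 128994 regions found by merging the called peaks of 9 ATAC-seq libraries, in which a transposase cuts accessible DNA. By locus, 4 regions fell in the SF3B1 window, 7 in SF3B2, 4 in SF3B3, 7 in SF3B4, 2 in SF3B5 and 3 in PHF5A. Peaks were not assigned to genes, since no hg19 annotation was used here. A region is therefore evidence about a stretch of DNA near the gene, not about the gene's own promoter or its transcript.

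All libraries came from 22Rv1, a human prostate carcinoma cell line, edited to express SF3B1 with the change C1111S, in which serine takes the place of a cysteine. Cells received for 3 h either DMSO at 0.1%, the vehicle, or one of 2 compounds that the labels call stereoprobes, WX-02-23 or WX-02-43, each at 20 µM. There were 3 libraries per treatment. The edited SF3B1 is shared by vehicle and treated cells alike, and cells with unedited SF3B1 were not analysed here. The replaced cysteine is the stereoprobe binding site of SF3B1, so no library had that site. The labels do not say whether the edited line is 1 clone or whether replicates were separate cultures, and the p-values below take in nothing beyond library-to-library spread, part of which may be technical. ATAC-seq on bulk cells cannot tell a site open in more cells from one cut more often per cell.

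SF3b sits in the U2 small nuclear ribonucleoprotein and holds the branch-point adenosine of the intron while the spliceosome assembles. SF3B1, its largest subunit, is a curved scaffold of repeats, and together with the small zinc-binding protein PHF5A it forms the pocket that receives the adenosine and that splicing inhibitors of the pladienolide type occupy. SF3B3 is a large propeller protein beside that scaffold, SF3B5 is a very small partner of both, and SF3B2 binds the RNA-binding subunit SF3B4. Splicing factors of this kind are made in all dividing cells, and chromatin at the starts of such housekeeping genes is usually open.

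RefSeq promoter windows on GRCh38.p14, from 250 bases before to 50 bases after a start, were matched for 4 of the 6 genes, with 2 starts for SF3B1. They are shown because they are the regulatory sequences of the genes named here. The build differs from that of the peaks, so no peak was placed on them. The 250 bases before the start are printed 5′ to 3′ in the direction of transcription, at chr2:197435094-197435343 (minus strand, the farther upstream of the SF3B1 starts), chr11:66052114-66052363 (plus strand, SF3B2), chr1:149927804-149928053 (minus strand, SF3B4) and chr6:144095574-144095823 (minus strand, SF3B5). Capitals mark exact matches to any of 7 motifs searched on both strands: TGTTTAC (forkhead), CCGGAAGT (ETS), GCGCATGC (NRF1), CCAAT (NFY box), GGGCGG (SP box, CCGCCC on the other strand), AAGATGGC (YY1) and TGACTCA (AP-1).
SF3B1: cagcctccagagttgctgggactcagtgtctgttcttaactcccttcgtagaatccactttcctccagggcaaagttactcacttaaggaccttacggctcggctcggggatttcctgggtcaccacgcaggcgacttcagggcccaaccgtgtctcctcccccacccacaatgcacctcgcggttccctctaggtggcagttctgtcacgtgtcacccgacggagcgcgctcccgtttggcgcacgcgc
SF3B2: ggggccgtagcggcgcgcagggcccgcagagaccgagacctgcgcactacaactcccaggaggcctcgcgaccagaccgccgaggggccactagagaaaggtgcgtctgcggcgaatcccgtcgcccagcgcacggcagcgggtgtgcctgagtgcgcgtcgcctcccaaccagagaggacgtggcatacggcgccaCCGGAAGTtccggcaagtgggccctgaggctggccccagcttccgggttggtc
SF3B4: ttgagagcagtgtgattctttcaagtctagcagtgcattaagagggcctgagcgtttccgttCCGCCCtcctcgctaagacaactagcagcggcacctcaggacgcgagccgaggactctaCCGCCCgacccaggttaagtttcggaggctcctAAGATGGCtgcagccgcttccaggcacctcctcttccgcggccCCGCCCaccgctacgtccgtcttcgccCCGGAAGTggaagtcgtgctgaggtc
SF3B5: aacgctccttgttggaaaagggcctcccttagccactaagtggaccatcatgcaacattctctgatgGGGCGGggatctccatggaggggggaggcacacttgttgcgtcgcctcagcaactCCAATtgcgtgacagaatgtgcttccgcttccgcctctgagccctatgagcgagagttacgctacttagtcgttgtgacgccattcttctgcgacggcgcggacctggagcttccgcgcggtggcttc

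The ETS letters stood 53 bases before the start in SF3B2 and 26 bases before it in SF3B4, and 4.14% of all 35116 RefSeq windows hold them. The YY1 letters stood 96 bases before the start in SF3B4 and 19 bases after it in SF3B2, outside the printed stretch, against 2.89% of all windows. SF3B4 also held the SP box on the other strand at 188, 129 and 53 bases before its start. SF3B5 held the SP box at 183 bases and CCAAT at 128 bases before its start, motifs found in 45.0% and 34.6% of all windows. No matches overlapped. None of the 7 motifs matched at either SF3B1 start, and no window of the 4 genes held the forkhead, NRF1 or AP-1 letters, which occur in 3.42%, 3.05% and 4.95% of all windows. A match is a run of letters and not a bound site. Over all 300 bases the windows held 57.3% GC in SF3B5, 61.0% and 61.7% at the SF3B1 starts, 61.7% in SF3B4 and 70.3% in SF3B2, beside a median of 58.7% for all windows. Their CpG counts of 22 to 35 lay above the median of 14, and SF3B2 had the most.

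Each deposited list gives for every peak the authors' fold enrichment of the summit over its local background. Lists held 81962 to 105132 peaks, and Spearman's rho of fold between libraries lay between 0.828 and 0.898 over the 59637 regions (46.2%) held by all 9. The stack of fragments at a summit and the background under it were recovered from each peak's fold and p. A fragment here is 1 unit of the peak caller's stack. It may be an extended read or cut end, since the caller's settings were not given. For the same reason the background may include fragments of the peak itself and of its neighbours, so it is not taken as a separate measurement. The stack came out as a whole number of fragments, within 0.002 of the deposited −log10 p, for at least 96.6% of the summits of a list and for 100% of those at SF3b loci. The commonest background, a sign of depth, ran from 1 fragment in WX-02-23 replicate 2 to 1.41 in WX-02-43 replicate 3. Percentiles below rank a region by fold within its library among those 59637 regions, where 50 is the middle.

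Every SF3b locus had an open region in all 9 libraries. Of the 27 regions, 18 (66.7%) were held by all libraries, 9 by fewer and 3 by 1 library only, beside 46.2% and 16.5% of all regions for the first and last of these. The strongest region of a locus, here always the one with the highest mean percentile of fold, lay far above the middle of the genome's shared regions at 5 loci and near it at SF3B3. It was picked by that same percentile, and a window with more regions offers more to pick from. Regions held by all 9 libraries numbered 3 at SF3B1, 5 at SF3B2, 2 at SF3B3, 5 at SF3B4, 1 at SF3B5 and 2 at PHF5A. The median fold of the 18 regions was 8.68, against 8.82 for all shared regions, and 8 of the 18 stood above percentile 50. Distances below run from the summit of the strongest region of the locus, with a minus sign toward lower coordinates.

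**Figure D1:**
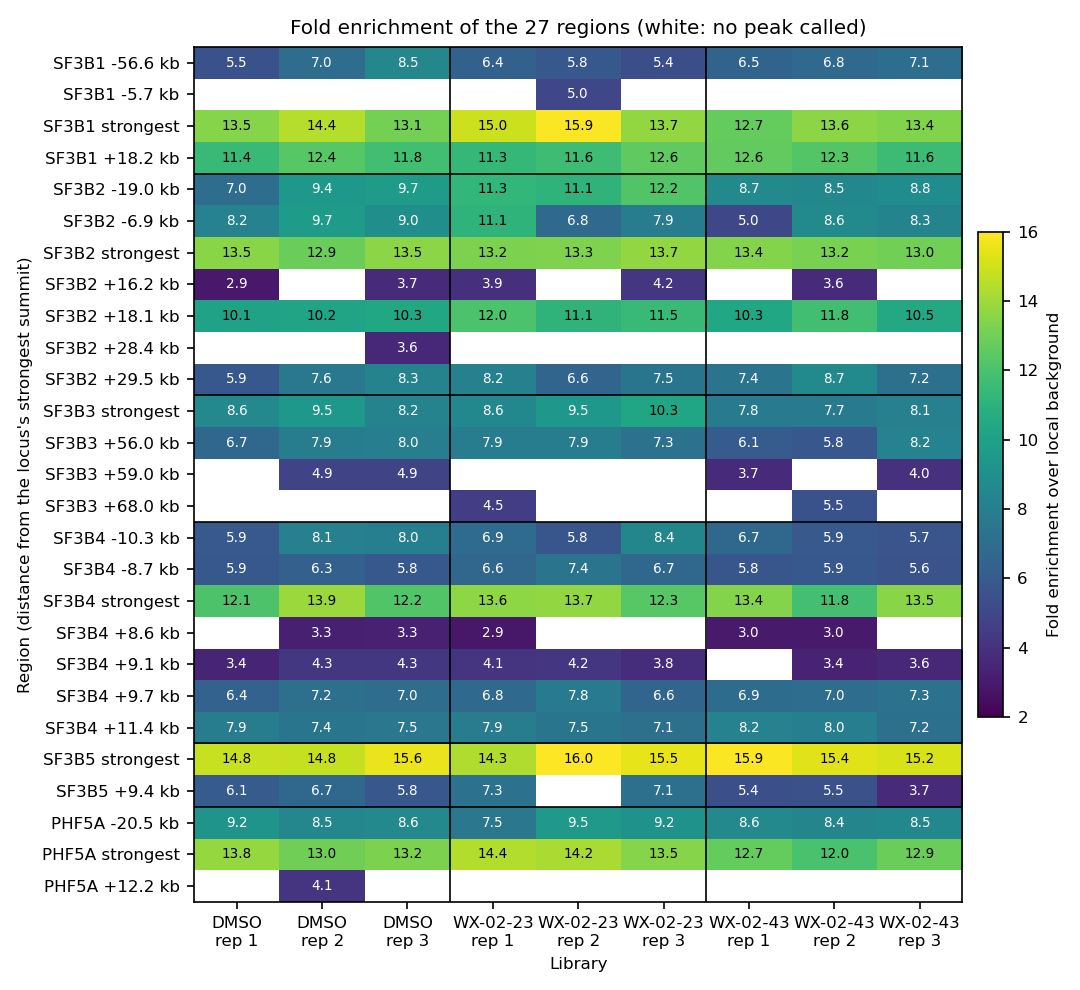
Fold enrichment over local background (color, and the number in each tile) for the 27 regions (rows, by locus and by distance in kb from the strongest summit) in the 9 libraries (columns, by treatment). White tiles had no called peak; the strongest regions are filled in every column, and no row is filled in all 3 libraries of one treatment and empty in all 3 of another.

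The SF3B1 locus, home of the edited scaffold subunit, had its strongest region at chr2:198299249-198300400, 1152 bp long. Its fold was 13.5, 14.4 and 13.1 in DMSO libraries 1 to 3, 15.0, 15.9 and 13.7 with WX-02-23, and 12.7, 13.6 and 13.4 with WX-02-43. The WX-02-23 folds all lay above the WX-02-43 folds, while DMSO overlapped both, and in percentile all 3 groups overlapped. The mean over 9 libraries was 13.9 ± 1.02 (SD), percentile 91.1 ± 3.95, on 76 to 99 summit fragments. A second wide region at +18.2 kb, chr2:198317614-198318806, was steadier (SD 0.51), with folds of 11.4, 12.4 and 11.8 in DMSO, 11.3, 11.6 and 12.6 with WX-02-23, and 12.6, 12.3 and 11.6 with WX-02-43. It stacked more fragments than the strongest region, 115 to 145, over a higher background (median 9.72 against 5.34), so its fold was lower. The region at -56.6 kb, chr2:198243166-198243675, was faint in all libraries. It had 11 to 21 fragments and stood at percentile 22.2 ± 9.04, with folds of 5.53, 7.01 and 8.49 in DMSO, 6.36, 5.85 and 5.38 with WX-02-23, and 6.52, 6.78 and 7.05 with WX-02-43.

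At PHF5A, whose product completes the branch-point pocket with SF3B1, the strongest region was chr22:41864369-41865686. Fold there was 13.8, 13.0 and 13.2 in DMSO, 14.4, 14.2 and 13.5 with WX-02-23, and 12.7, 12.0 and 12.9 with WX-02-43, a mean of 13.3 ± 0.76 (percentile 88.3 ± 3.82, 94 to 113 fragments). The WX-02-43 libraries had the lowest 3 folds, but their percentiles of 88.1, 82.7 and 87.8 overlapped those of DMSO, 84.3 to 92.7, and lay below the WX-02-23 ones, 92.9, 92.5 and 88.4. Its summit fell within 11 bp of the median position in 8 libraries and at -333 bp from it in WX-02-23 replicate 3.

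The most heavily cut stretch of the PHF5A window was not that region but the one at -20.5 kb, chr22:41842653-41844832. It spanned 2180 bp, and the summed width of its peaks stood at percentile 99.9 of all shared regions. Its summit held 128 to 148 fragments, with a median of 138 that was the highest of the SF3b-locus regions, at percentile 99.6 by that measure. Its fold was only middling, with a mean of 8.66 ± 0.59 and percentile 47.5 ± 9.67, since the background under it was the highest of the set, with a median of 15.4 fragments. The fold per library was 9.22, 8.49 and 8.60 in DMSO, 7.52, 9.52 and 9.16 with WX-02-23, and 8.59, 8.36 and 8.51 with WX-02-43, so the groups overlapped. The caller cut it into 1 to 4 peaks: the crest at the higher-coordinate end appeared in all 9 libraries, and a second crest, at -22153 bp from the strongest PHF5A summit, in 8 of them, with a fold of 5.32 ± 0.37. A further crest at -21467 bp was called in 2 WX-02-23 libraries and 1 WX-02-43 library, and another at -21167 bp in 2 WX-02-43 libraries. Both were called in 0 DMSO libraries. Gaps between the peaks do not count in their summed width. DMSO replicate 3 had the stretch as 1 unbroken peak of 2171 bp.

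The SF3B3 locus, which encodes the propeller subunit, had the weakest leading region. At chr16:70557255-70558757 fold was 8.60, 9.48 and 8.25 in DMSO, 8.56, 9.47 and 10.3 with WX-02-23, and 7.79, 7.73 and 8.12 with WX-02-43. WX-02-43 libraries lay below all DMSO and WX-02-23 libraries in fold, but their percentiles of 44.7, 39.3 and 43.1 overlapped those of DMSO, 52.5, 53.2 and 34.8. The mean was 8.70 ± 0.87 (percentile 47.7 ± 9.33) on 34 to 49 fragments. In breadth it ranked far higher: 1503 bp long, it stood at percentile 94.8 by the summed width of its peaks. It was a row of 3 crests, a middle one in 9 libraries, another at -264 bp in 7 (fold 6.84 ± 0.60) and a last at +771 bp in 8 (5.95 ± 0.89). The middle summit moved by no more than 11 bp between libraries. In WX-02-23 replicate 1 all of it was called as a single peak of 1399 bp. The other SF3B3 region in all libraries, chr16:70613560-70614095 at +56.0 kb, had a fold of 5.78 to 8.20 and percentile 30.9 ± 8.58.

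**Figure D2:**
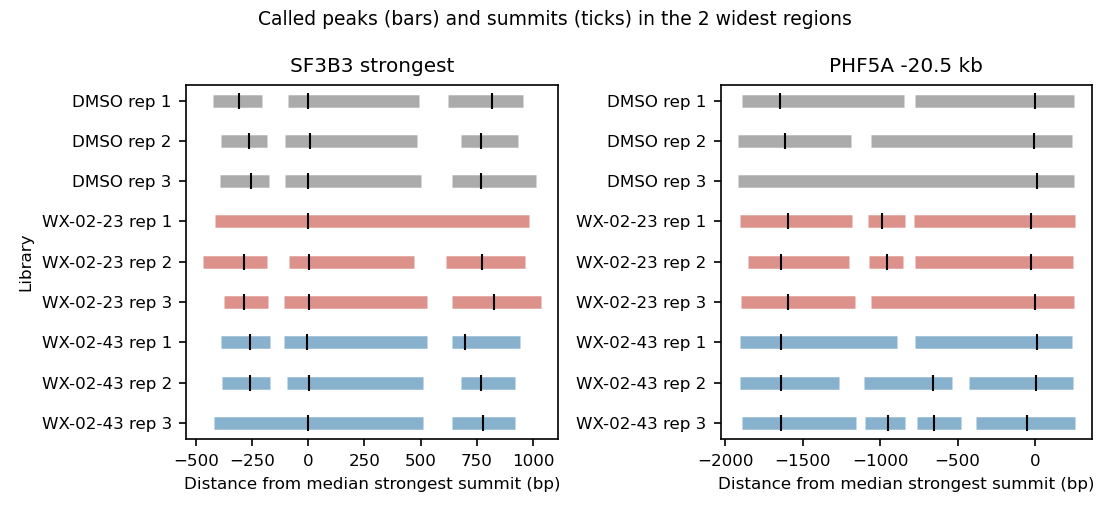
Called peaks (bars) and their summits (ticks) in each library across the SF3B3 strongest region (left) and the PHF5A region at -20.5 kb (right), in bp from the median summit of the highest peak. The SF3B3 middle crest and the rightmost PHF5A crest line up in all 9 libraries, while the breaks between PHF5A peaks fall differently among libraries of one treatment.

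SF3B2 and SF3B4 encode the pair of subunits that bind each other, and their strongest regions were alike in strength. At SF3B2, chr11:65819167-65820289, fold was 13.5, 12.9 and 13.5 in DMSO, 13.2, 13.3 and 13.7 with WX-02-23, and 13.4, 13.2 and 13.0 with WX-02-43. With a mean of 13.3 and an SD of 0.27 over 9 libraries this was the steadiest of the 6 strongest regions, at percentile 88.6 ± 2.41 on 116 to 144 fragments. Around it the SF3B2 window held 4 more regions found in all libraries. The one at +18.1 kb, chr11:65837287-65838394, had folds of 10.1, 10.2 and 10.3 in DMSO, 12.0, 11.1 and 11.5 with WX-02-23, and 10.3, 11.8 and 10.5 with WX-02-43 (percentile 70.8 ± 7.30). Its DMSO libraries were the lowest 3 by percentile, 59.3 to 67.7, below the treated libraries at 69.7 to 81.3. The region at -6.94 kb, chr11:65812487-65813104, varied most of the 18, from 5.02 to 11.1 in fold, and both extremes were treated libraries. The region at +29.5 kb, chr11:65848994-65849366, stood at percentile 33.0 ± 9.59 and is named after its values were seen.

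At SF3B4, chr1:149899352-149900424, fold was 12.1, 13.9 and 12.2 in DMSO, 13.6, 13.7 and 12.3 with WX-02-23, and 13.4, 11.8 and 13.5 with WX-02-43, with a mean of 13.0 ± 0.83 and percentile 86.3 ± 5.40. The 3 groups overlapped throughout. Between +8.57 and +11.4 kb the window held a cluster of 4 regions over a common high background, 11.3 to 14.5 fragments. That background may include fragments of the 4 regions themselves. Of these, the regions at +9.68 kb, chr1:149908983-149909636, and +11.4 kb, chr1:149910907-149911608, were in all libraries. They stacked 79 to 105 fragments and 96 to 121 fragments, percentiles 93.0 and 95.5, but had folds of 6.40 to 7.81 and of 7.14 to 8.18, percentiles 27.3 and 35.1. The summit at +11.4 kb was placed within 7 bp in all 9 libraries. On the other side lay regions at -10.3 kb, chr1:149889242-149889672 (percentile 25.2 ± 10.5), and at -8.71 kb, chr1:149890751-149891440. The latter, at percentile 18.5 ± 6.05, was the lowest of the 18 and is named after its values were seen.

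SF3B5, the smallest subunit's gene, had the strongest region of all. At chr6:144416092-144417221 fold was 14.8, 14.8 and 15.6 in DMSO, 14.3, 16 and 15.5 with WX-02-23, and 15.9, 15.4 and 15.2 with WX-02-43, a mean of 15.3 ± 0.55. It ranked at percentile 95.8 ± 1.76 on 112 to 137 fragments, and it was first of the 6 in 8 of 9 libraries. The exception was WX-02-23 replicate 1, where SF3B1 came first. The window held just 1 other region, chr6:144426080-144426377 at +9.36 kb, with 8 to 16 fragments. That region was called in all libraries but WX-02-23 replicate 2, the one with the lowest commonest background. A part of depth in the missing call was not tested.

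**Figure D3:**
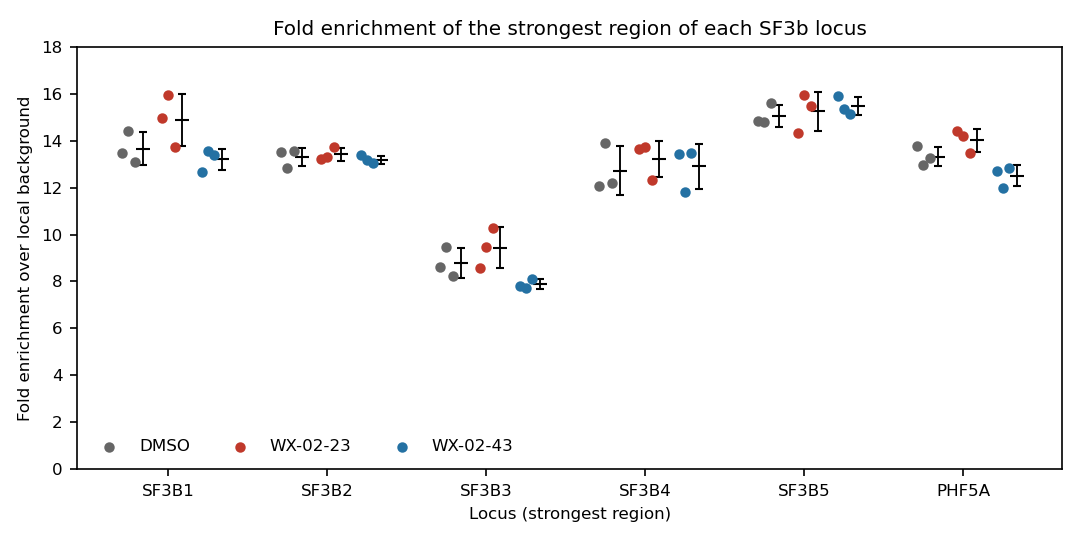
Fold enrichment over local background of the strongest region at each of the 6 loci. Points are libraries and bars the mean ± SD of each treatment (n = 3). SF3B5 is highest on average and SF3B3 lies below the other 5 loci in every library, while the WX-02-43 points lie below the other treatments at SF3B3 and PHF5A and below WX-02-23 at SF3B1.

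Ranked by mean percentile of fold the strongest regions followed the order SF3B5, SF3B1, SF3B2, PHF5A, SF3B4 and SF3B3. The library ranges of neighbours in that order overlapped from SF3B5 down to SF3B4. SF3B3 stood apart, last in 9 of 9 libraries, with percentiles of 34.8 to 63.8 against 76.9 to 91.4 for SF3B4. By summit fragments the order among all 18 changed: the PHF5A region at -20.5 kb stood at percentile 99.6, SF3B1 at +18.2 kb and the SF3B2 strongest region at 99.3, and the SF3B1 strongest region at 89.3. The lists of the strongest SF3b-locus regions by fold and by fragments therefore differ, and both are levels within a library, not differences between treatments.

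**Figure D4:**
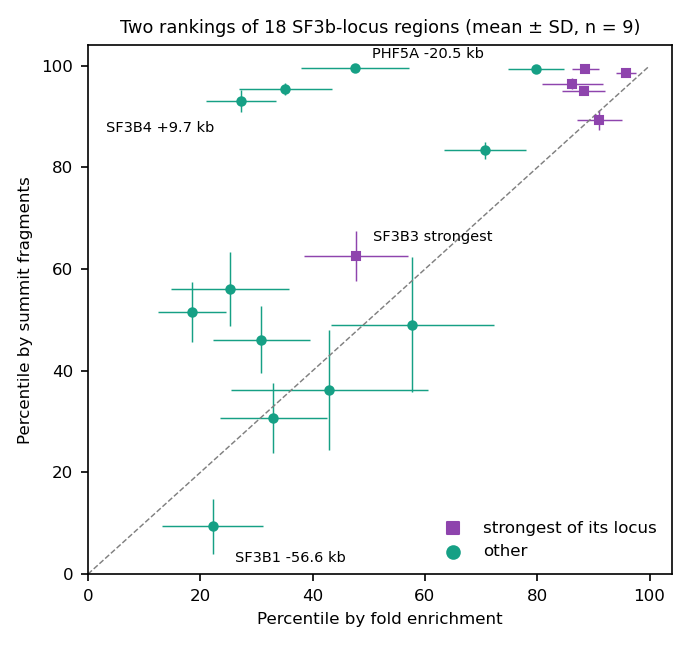
Mean percentile (± SD, n = 9 libraries) of the 18 regions held by all libraries, by fold enrichment (horizontal) and by summit fragments (vertical), each among all 59637 shared regions. Squares are the strongest regions of the loci; the 3 points near the top left, PHF5A at -20.5 kb and the SF3B4 regions at +9.7 and +11.4 kb, have many fragments over a high background.

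The 9 regions not called in every library were weak, with folds of 2.90 to 7.30 on 8 to 63 fragments. Singletons were SF3B1 at -5.71 kb (WX-02-23 replicate 2, 9 fragments), SF3B2 at +28.4 kb (DMSO replicate 3, 12 fragments) and PHF5A at +12.2 kb (DMSO replicate 2, 8 fragments). A missing peak is a missing call and not a measured absence. SF3B3 at +59.0 kb, chr16:70616563-70616840, is named after its values were seen: it was called in 2 DMSO and 2 WX-02-43 libraries and in none of 3 with WX-02-23, on 13 to 18 fragments.

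The first comparison asked whether any SF3b-locus region was opened or closed by a stereoprobe, taken as a peak in 3 of 3 libraries of one group and 0 of 3 of the other. No region of the 27 met this between any pair of groups. Over all 128994 regions, 1.77% were gained and 0.739% lost with WX-02-23 against DMSO. WX-02-43 against DMSO gave 0.331% gained and 0.366% lost, and WX-02-23 against WX-02-43 gave 1.43% and 0.806%. A set of 27 is too small for 0 to stand apart from such shares. Without DMSO replicate 1, SF3B3 at +59.0 kb counted as lost with WX-02-23 against DMSO. Without WX-02-43 replicate 2 it was lost with WX-02-23 against WX-02-43. In the first setting 2345 of 128410 regions were lost in all, beside 953 of 128994 with every library. In the second 1457 of 126734 were lost, beside 1040 of 128994.

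The second comparison was graded. Folds were turned into normal scores of the rank within each library and tested with limma over all 59637 shared regions, with Benjamini-Hochberg adjustment and a threshold of 0.05. None of the 18 SF3b-locus regions passed in any of the 3 pairs of groups. At an unadjusted p under 0.05 there were 1 for WX-02-23 against DMSO, 0 for WX-02-43 against DMSO and 2 for WX-02-23 against WX-02-43, while 12.4%, 7.38% and 12.8% of all regions reached that level. Among all regions 0.855% scored higher and 0.917% lower with WX-02-23 than with DMSO, 0% and 0.00168% with WX-02-43 than with DMSO, and 0.617% and 1.02% with WX-02-23 than with WX-02-43. The median score difference of the 18 was 0.07, 0.13 and -0.01 in these pairs, beside 0.01, 0.02 and -0.01 for all regions.

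The region that came nearest to a change lies at -19.0 kb in the SF3B2 window, chr11:65800304-65801060. Fold there was 7.01, 9.45 and 9.67 in DMSO, 11.3, 11.1 and 12.2 with WX-02-23, and 8.72, 8.52 and 8.83 with WX-02-43. Each WX-02-23 library stood above all 6 others, which overlapped each other. Summit fragments showed the same split, with 20, 28 and 30 in DMSO, 50, 38 and 47 with WX-02-23, and 28, 30 and 35 with WX-02-43. The commonest background was 1.14, 1.09 and 1.23 fragments in the DMSO libraries, 1.33, 1 and 1.10 with WX-02-23 and 1.22, 1.38 and 1.41 with WX-02-43. The background under this region was 1.995, 2.07 and 2.205 fragments in DMSO, 3.525, 2.52 and 2.94 with WX-02-23, and 2.325, 2.64 and 3.075 with WX-02-43. It was higher in each WX-02-23 library than in any DMSO library and overlapped WX-02-43. This background may include the region's own fragments, and the part of background or depth in the difference was not tested.

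The SF3B2 -19.0 kb score was 0.78 higher with WX-02-23 than with DMSO (SE 0.20, 95% interval 0.35 to 1.21) and missed the limma threshold (adjusted p = 0.0668). Against WX-02-43 it was 0.62 higher (SE 0.20, interval 0.19 to 1.05, limma adjusted p = 0.165). WX-02-43 differed from DMSO by 0.16 (interval -0.27 to 0.59, limma adjusted p = 0.897). When regions were ranked by the deposited −log10 p in place of fold, the region passed in both comparisons that involve WX-02-23. Differences were then 0.83 (limma adjusted p = 0.000938) and 0.56 (limma adjusted p = 0.0466). Over 14 alternatives the limma adjusted p ranged from 0.000938 to 0.219 against DMSO and from 0.0466 to 0.388 against WX-02-43. Only the ranking by −log10 p fell under 0.05. By that ranking 1479 of the 59637 shared regions passed as higher and 1469 as lower with WX-02-23 than with DMSO. Against WX-02-43 these counts were 862 and 1546.

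Groups failed to overlap in percentile at a few regions. WX-02-23 was higher than DMSO in all libraries at SF3B2 -19.0 kb, SF3B2 +18.1 kb and SF3B4 -8.71 kb, and lower at 0, where 8% and 8.15% of all shared regions were. WX-02-43 was higher than DMSO at SF3B2 +18.1 kb, SF3B4 +9.68 kb and the SF3B5 strongest region, and lower at 0 (all regions, 6.54% and 5.96%). In fold, WX-02-43 and DMSO overlapped at each of these regions. WX-02-23 was higher than WX-02-43 at SF3B2 -19.0 kb, SF3B4 -8.71 kb and the PHF5A strongest region, and lower at SF3B1 -56.6 kb (all regions, 8.29% and 9.66%). Both treated groups were compared with the same DMSO libraries, so those comparisons are not independent. At SF3B2 +18.1 kb the score difference was 0.36 for WX-02-23 (interval -0.03 to 0.76, limma adjusted p = 0.457) and 0.33 for WX-02-43 (interval -0.07 to 0.72, limma adjusted p = 0.736).

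**Figure D5:**
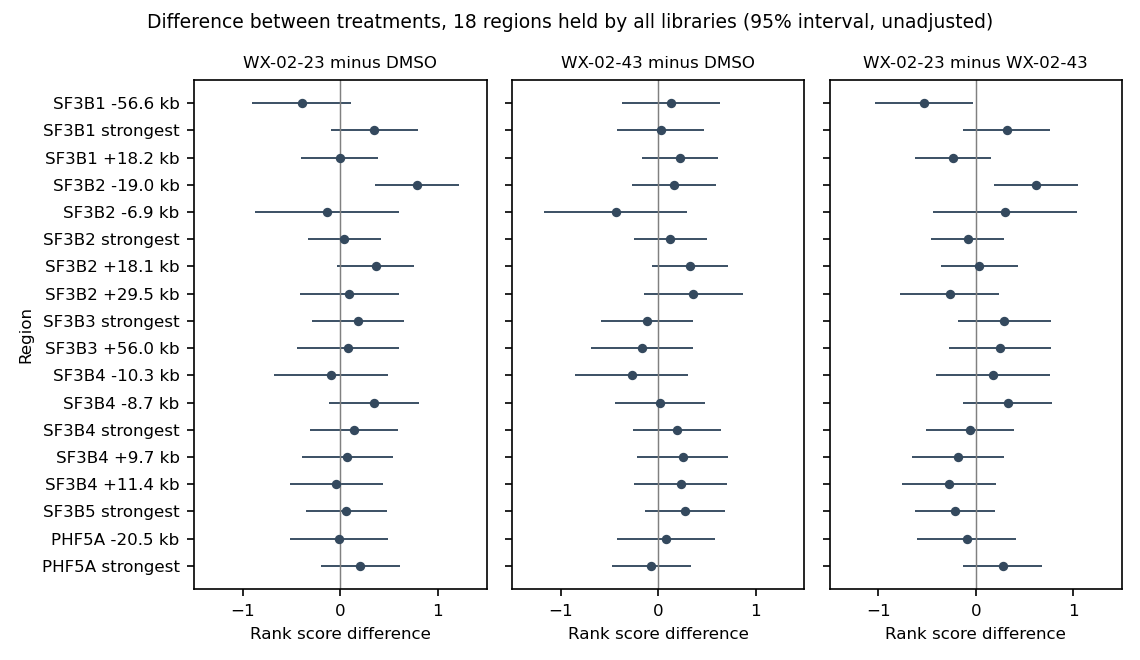
Difference of rank score between treatments (points) with the unadjusted 95% interval from limma (lines) for the 18 regions held by all libraries, 1 panel per pair of groups. The SF3B2 region at -19.0 kb stands clear of 0 in both panels with WX-02-23, and SF3B1 at -56.6 kb just clears it in the last; neither passed after adjustment over all 59637 regions.

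Set directly against each other at the same dose and time, the 2 stereoprobes gave no difference past the threshold at any strongest region. WX-02-23 minus WX-02-43 was 0.32 at SF3B1 (interval -0.13 to 0.76, limma adjusted p = 0.588) and 0.27 at PHF5A (interval -0.13 to 0.68, limma adjusted p = 0.613). It was 0.29 at SF3B3 (interval -0.18 to 0.77), -0.08 at SF3B2 (interval -0.46 to 0.29), -0.06 at SF3B4 (interval -0.51 to 0.39) and -0.22 at SF3B5 (interval -0.63 to 0.20). Scores have an SD of 1 over all regions, so these intervals leave room for moderate differences in either direction and do not show that the compounds act alike here. At SF3B1 -56.6 kb the score was 0.53 lower with WX-02-23, a difference of -0.53 (SE 0.24, interval -1.04 to -0.02, limma adjusted p = 0.359), on 11 to 19 fragments in those 6 libraries. With p-values adjusted over the 3 pairs together, the count past the threshold among the 18 was again 0.

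Peak number and covered bases per locus were compared by exact permutation tests, in which 3 libraries against 3 cannot give a p below 0.1. PHF5A peaks covered 3329, 3489 and 3454 bp in DMSO, 3170, 2748 and 3166 bp with WX-02-23, and 3093, 2981 and 3021 bp with WX-02-43. The DMSO libraries were the 3 highest, with a mean of 3424 ± 84.1 bp against 3028 ± 242 bp and 3032 ± 56.8 bp (n = 3 each, exact p = 0.1 for either stereoprobe against DMSO, adjusted p = 0.6). At the PHF5A strongest region the peak measured 1258, 1305 and 1283 bp in DMSO, 1171, 855 and 1120 bp with WX-02-23, and 1062, 1096 and 1107 bp with WX-02-43 (exact p = 0.1 for each stereoprobe against DMSO, adjusted p = 0.72). The width of this peak is part of the PHF5A cover given above. DMSO peaks were the 3 widest, while the highest mean fold there was that of WX-02-23. SF3B1 peaks covered 2595 ± 166 bp with WX-02-23 and 2257 ± 56.0 bp with WX-02-43, and SF3B3 had 3.67 ± 0.58 peaks with WX-02-23 and 5 ± 0 with WX-02-43 (n = 3 each, exact p = 0.1 for both, adjusted p = 0.6 and 1). No other test of number or cover at the 6 loci reached 0.1, and summit positions of the strongest regions gave no exact p below 0.2.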

How the data were processed

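ATAC-seq libraries were made with an Active Motif kit, per the labels' protocols. The submitters' processing notes name hg19, Bowtie2 and MACS2. Of their versions and settings, of read shifting and duplicate removal, and of a control library, the sources used here say nothing. Each deposited list is one library's, so replicates were not pooled. It holds intervals, summits, a fold enrichment over local background (a ratio) and −log10 p and −log10 q values, all the authors' own per-peak values, with a lowest −log10 q of 2.00 to 2.17. The deposited score was not used. Read totals were not analysed here.

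Peaks of all 9 lists were merged where they shared 1 bp. A library's value for a region is that of its highest-fold peak there. Summit fragments and background were solved from fold and p with MACS2's Poisson formula (tolerance 0.002). Rank scores were tested with limma 3.58.1 (R 4.3.3) in one fit of 3 groups without a replicate block, and totals, summits and widths with two-sided exact permutation tests (scipy 1.17.1), adjusted by Benjamini-Hochberg over the 18 tests of each measure (6 loci, 3 pairs). Scripts were tested on simulated data. Named regions are, at each locus, the strongest and up to 3 more held by all libraries, in order of percentile. Alternatives were ranking by −log10 p, log2 fold centred on the library median without or with a pseudocount of 1, a filter on low folds, −log10 q of at least 5, equal-length lists of 81962 peaks, 50% cover, windows of 100 bp either side of summits, each pair fitted alone, adjustment over the 3 pairs together, a replicate block and leaving out each library. The members and lists were chosen with earlier results of these data known. Other spliceosome genes, SF3B6 among them, and prostate markers were not analysed here, since no hg19 annotation was used. The SF3B1 protein around the edited residue was not analysed, since no protein table was used. SF3B3 and PHF5A promoters were not shown.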

Additional observations from a re-analysis of the deposited data

How the results depend on the processing

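Ranking by −log10 p in place of fold raised the count of SF3b-locus regions past the limma threshold from 0 to 1 for WX-02-23 against DMSO and from 0 to 1 against WX-02-43, in both cases the SF3B2 region at -19.0 kb. That value grows with the number of fragments as well as with fold. By −log10 p, 1479 of all 59637 shared regions passed as higher and 1469 as lower with WX-02-23 than with DMSO. By fold these counts were 510 and 547. Against WX-02-43 they were 862 and 1546 by −log10 p, and 368 and 610 by fold. For SF3b-locus regions every other alternative run gave a count of 0, leaving out a library included. Without 1 library the SF3B2 difference from DMSO ranged from 0.61 to 0.87 (limma adjusted p = 0.0946 to 0.219). Counts of lost SF3b-locus regions ranged from 0 to 1 for WX-02-23 against DMSO and against WX-02-43 when libraries were left out. Gained counts stayed at 0. In the settings with a count of 1, 2345 of 128410 and 1457 of 126734 of all regions were lost, in that order. For differences at the 6 strongest regions, 14 of 252 alternatives had the other sign and 0 passed the threshold. Fitting each pair alone, the replicate block and adjustment over the pairs together leave the difference itself unchanged. Those alternatives could not change its sign. For peak number and covered bases, 12 of 288 alternatives had the other sign, and the lowest adjusted p of the exact permutation tests was 0.36. Peak number differed by 0 at SF3B1, SF3B2 and SF3B4 in every pair, and a difference of 0 could not count as a change of sign. The labels do not say that replicate numbers pair libraries, so they were not taken as pairs. Same-numbered libraries correlated at -0.11 to 0.12 in their deviations from group means, and other pairs at -0.10 to 0.10. Of the libraries, 4 of 9 correlated best with their own number. With the replicate block the count past the threshold was 0 in each pair of groups. Of 105 levels under other settings, 82 stayed within 1 SD of the reported percentile. Among the 105, 54 were levels of the strongest regions without 1 library, and all 54 stayed. Leaving out 1 of 9 values can hardly move a mean by 1 SD, so those 54 say little. All levels that moved did so under the remaining settings. Regions on under about 20 fragments, such as SF3B1 at -56.6 kb and the singletons, rest on few counts, and a missing call there does not show closed chromatin.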
